A study of Mus musculus with 96 samples.

Results

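The Period genes Per1, Per2 and Per3 and the cryptochrome genes Cry1 and Cry2 encode the repressors of the mammalian circadian clock. They were taken from the count table by gene name, and 5 of its 56748 genes carry these names. Poly-A RNA of liver, skeletal muscle and cerebral cortex of C57BL/6 mice was sequenced in 96 libraries, 8 for each combination of tissue, diet and sex. Mice had food at all times (ad libitum, AL) or fasted for 16 h of every day (intermittent fasting, IF), from young adult age and for 4 months, under a daily light and dark cycle. Mice 1-16 are labelled male, with AL as mice 1 to 8 and IF as mice 9 to 16, and mice 25-40 are labelled female, with AL as mice 25 to 32 and IF as mice 33 to 40. For male mice, the paper on these data gives an IF fast from 16:00 to 8:00 and killing between 07:00 and 12:00. It describes no females, so it states neither these hours nor the starting age and light cycle for mice 25-40. Each mouse gives a single time of day, and its hour is not given. The comparison of diets asks how far a daily fast moves clock gene mRNA in each tissue. Mice 1-16 and mice 25-40 differ in labelled sex and were numbered as separate sets, so effects of sex and of cohort cannot be told apart. All values are from whole tissue, in which fewer cells of a type and less RNA per cell cannot be told apart.

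In the clock's main feedback loop, the activators BMAL1 and CLOCK, or NPAS2 in its place, bind E-box motifs and switch on the Period and cryptochrome genes. PER and CRY proteins then form complexes that enter the nucleus and repress the activators, and casein kinases and ubiquitin ligases set how long these complexes last. Liver and muscle clocks shift with the time of feeding, while glucocorticoids, cyclic AMP signalling through CREB and temperature act directly on some of these genes, Per1 and Per2 above all.

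Library depth, the sum of counts over all genes, was 26097314 to 49838004 over the 96 libraries (median 36164022). In liver it was 26097314 to 44763638 for AL and 31458822 to 40826057 for IF in mice 1-16, and 29779699 to 41530063 and 26693099 to 37906982 in mice 25-40. Muscle libraries held 29181553 to 46889676 counts for AL and 28319147 to 45019446 for IF in mice 1-16, and 30141767 to 49838004 and 36331661 to 44165322 in mice 25-40. For cortex, without AL replicate 1 of mice 1-16, which is left out below, the depths were 32373437 to 39314534 for AL and 31956366 to 36239203 for IF in mice 1-16, and 31231970 to 39411095 and 33615626 to 40235336 in mice 25-40. Levels are given as CPM, the raw count of a gene over the library's depth times 1000000. These depths limit counting error only, and the spread between mice is given with each level.

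Tissue labels were checked against 5 marker genes each. The summed liver list (Alb, Apoa1, Ttr, Cps1 and Serpina1c) was 41856 to 97351 CPM in liver and 0.0701 to 5.34 CPM in muscle. Cortex libraries reached 4270.5 CPM of that list, of which Ttr reached 4269 CPM. Muscle markers (Acta1, Ckm, Myh4, Mb and Tnnt3) summed to 104687 to 137247 CPM in muscle, 0 to 7.05 CPM in liver and 14.3 to 29.2 CPM in cortex. The neuron list (Snap25, Syt1, Slc17a7, Gad1 and Nrgn) was 6276 to 9792 CPM in cortex, 3.98 to 18.04 CPM in liver and 0.627 to 2.21 CPM in muscle. Each list thus set its own tissue apart in the 95 libraries kept, and these sums were not taken for the library left out. Xist, which is expressed from the inactive X chromosome of females, was 0 to 0.612 CPM in the 47 libraries labelled male and 36.8 to 1627 CPM in the 48 labelled female. The Y-linked gene Ddx3y was 25.1 to 70.8 CPM and 0 to 0.0497 CPM in the same libraries. Cortex AL replicate 1 of mice 1-16, labelled male, went against its label with 213 CPM of Xist and 0 of Ddx3y, and it was left out, so cortex AL of mice 1-16 has 7 libraries in all group values.

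Positions are on GRCm39. PER1, which acute signals induce quickly, is encoded by Per1 (ENSMUSG00000020893) on the plus strand of chromosome 11, from 68986043 to 69000786. Per2 (ENSMUSG00000055866), whose protein is the scaffold of the repressor complex, lies on the minus strand of chromosome 1 from 91343704 to 91387046. Per3 (ENSMUSG00000028957), the family member that the core oscillator needs least, lies on the minus strand of chromosome 4 from 151088109 to 151129122. The strongest repressor of the BMAL1 and CLOCK pair comes from Cry1 (ENSMUSG00000020038), on the minus strand of chromosome 10 from 84967564 to 85020928. Its paralogue Cry2 (ENSMUSG00000068742), whose loss lengthens the period of the clock, is on the minus strand of chromosome 2 from 92233991 to 92264388. These spans are from the deposited table, in which all are protein coding. By the GENCODE vM39 annotation Per1 overlaps 3 long noncoding RNA genes, 2 of them on the opposite strand. Opposite-strand noncoding genes also overlap Per2 (3), Per3 (1) and Cry2 (1), and none overlaps Cry1. The libraries were made to be directional, with dUTP in the second strand. Whether the counting kept the strands apart is not stated, so reads of these genes could be in the counts to an unknown extent.

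To set the genes side by side, CPM was divided by gene length in kb, with lengths from the deposited table. On this scale the order in AL liver of mice 1-16 ran from Per2 at 4.70 ± 1.35 CPM per kb (SD, n = 8) over Cry2, Cry1 and Per1 to Per3 at 0.654 ± 0.302, and each gene overlapped its neighbour in that order. In IF liver of the same mice Per1 came first at 24.7 ± 8.79 CPM per kb, overlapping Per2 at 12.9 ± 5.97. All IF libraries had more Per2 than any had of Cry2 at 6.04 ± 0.853, followed by Cry1 and Per3, which overlapped their neighbours. In AL liver of mice 25-40, Per2, Per1 and Per3 lay together at 12.9 ± 6.33, 12.8 ± 5.78 and 12.2 ± 5.07 CPM per kb. Cry2 overlapped them, and Cry1 was apart and lowest at 1.20 ± 0.391. That gap below Cry2 also held in IF liver of mice 25-40, where Per1 came ahead of Per2 and Per3, with Cry1 at 1.73 ± 0.292 CPM per kb.

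Muscle put the cryptochromes first in AL mice 1-16, with Cry2 at 5.14 ± 0.688 and Cry1 at 4.19 ± 0.445 CPM per kb, which overlapped each other, while only Cry1 overlapped Per1 at 2.67 ± 0.781. Per3 and Per2 stood below Per1 without overlap, at 0.817 ± 0.203 and 0.568 ± 0.294 CPM per kb. In the other muscle groups Per1 was the most abundant per kb, at 11.5 ± 2.71 in IF mice 1-16, 11.6 ± 3.68 in AL mice 25-40 and 13.1 ± 2.26 in IF mice 25-40. Cry2 came next in each of these 3 groups and overlapped Per1 in the first 2. Cortex kept a single arrangement at its upper end. Per1 led in all 4 groups, from 27.5 ± 6.76 CPM per kb (SD, n = 7) in AL mice 1-16 to 32.4 ± 7.89 (SD, n = 8) in AL mice 25-40. Cry2 overlapped Per1 in each group and never overlapped the gene below it, with means of 22.2 to 26.6 CPM per kb. Cry1, Per2 and Per3 followed between 2.99 and 7.46 CPM per kb, each overlapping its neighbour.

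**Figure D1:**
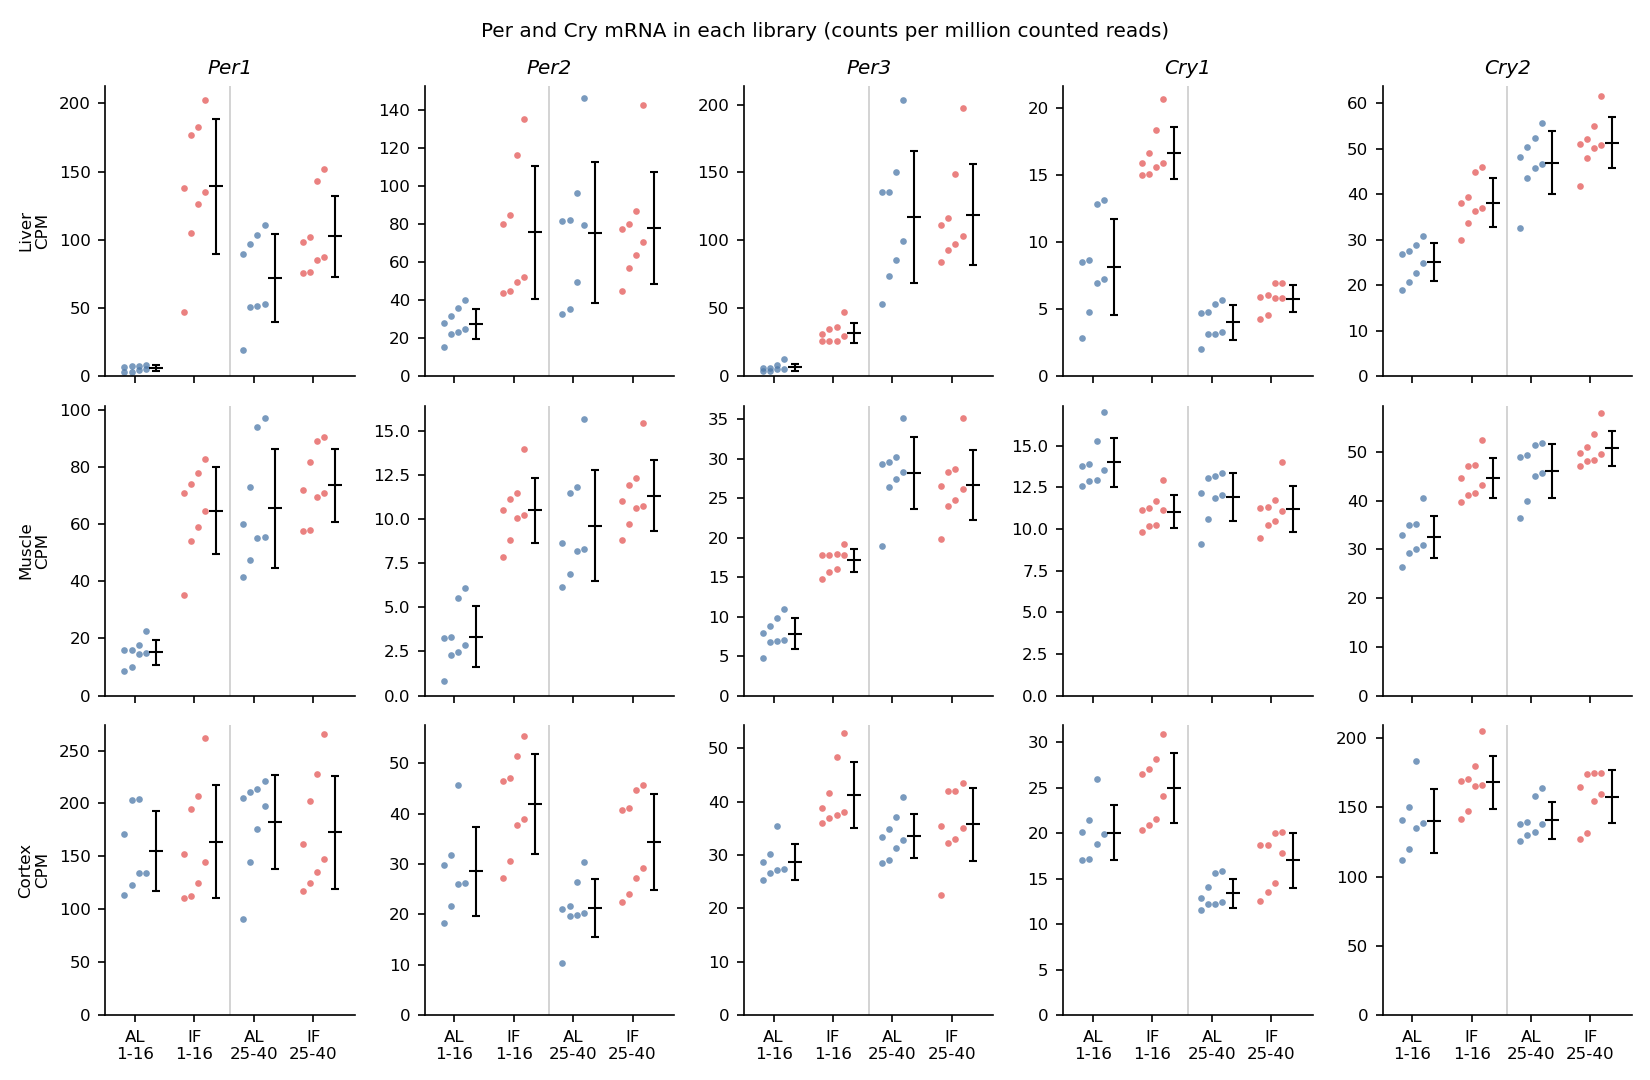
Level of each gene (CPM, linear axes from 0) in every library of liver, muscle and cortex, with AL in blue and IF in red, mice 1-16 and mice 25-40 apart, and bars for mean and SD. Liver Per1 of mice 1-16 lay at 2.64 to 8.29 CPM in AL and at 46.9 to 203 CPM in IF.

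Diet effects were tested gene by gene with edgeR in each tissue and set of mice. A log2 fold change is IF over AL, and a gene passed when its p, adjusted over all genes tested, was under 0.05. All 5 genes passed edgeR's filter on low counts in each of the 6 fits. In liver of mice 1-16, 5 of 5 members rose, where 44.6% of the 16204 genes tested passed in either direction. Their median log2 fold change was 1.34, and that of all genes was 0.060. Muscle of mice 1-16 had 4 members that rose and 1 that fell, against 23% of 15025 genes passing, with a median of 1.05 beside 0.0059 for all genes. In cortex of mice 1-16, 1 member rose, against 7.21% of 18462 genes, and the medians were 0.33 for the members and -0.0049 for all genes. That cortex count depends on single libraries. With each left out in turn, 638 to 2060 genes passed around 1332, with 1 to 4 members among them. With AL and IF replicate 2 left out together 498 passed, so the cortex share is a rough yardstick here and below.

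No member passed in mice 25-40, in which edgeR passed 0% of 15938 genes in liver, 0.00653% of 15308 in muscle and 0.0109% of 18403 in cortex. These shares are 0, 1 and 2 genes. With each library left out in turn they were 0 throughout in liver, 1 to 3 in muscle and 0 to 254 in cortex, the last without AL replicate 2, and no member passed in any of these fits. At an unadjusted p under 0.05 edgeR gave 919 genes in liver, 1644 in muscle and 2069 in cortex, among them 1, 1 and 3 members. With DESeq2's Wald test, 6, 97 and 68 genes passed, and Per2 in cortex was the only member among them. The members' median log2 fold change in mice 25-40 was 0.17 in liver, 0.21 in muscle and 0.16 in cortex, beside -0.0095, -0.019 and 0.0031 for all genes. In each tissue of both sets of mice, the members' median was above that of all genes. Leaving out 1 library could turn the sign of 4 small fold changes of mice 25-40, those of Per2 (-0.079 to 0.26) and Per3 (-0.072 to 0.20) in liver and of Per3 (-0.074 to 0.047) and Cry1 (-0.068 to 0.0078) in muscle. In mice 1-16 it could do so for cortex Per1 (-0.035 to 0.17) only.

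**Figure D2:**
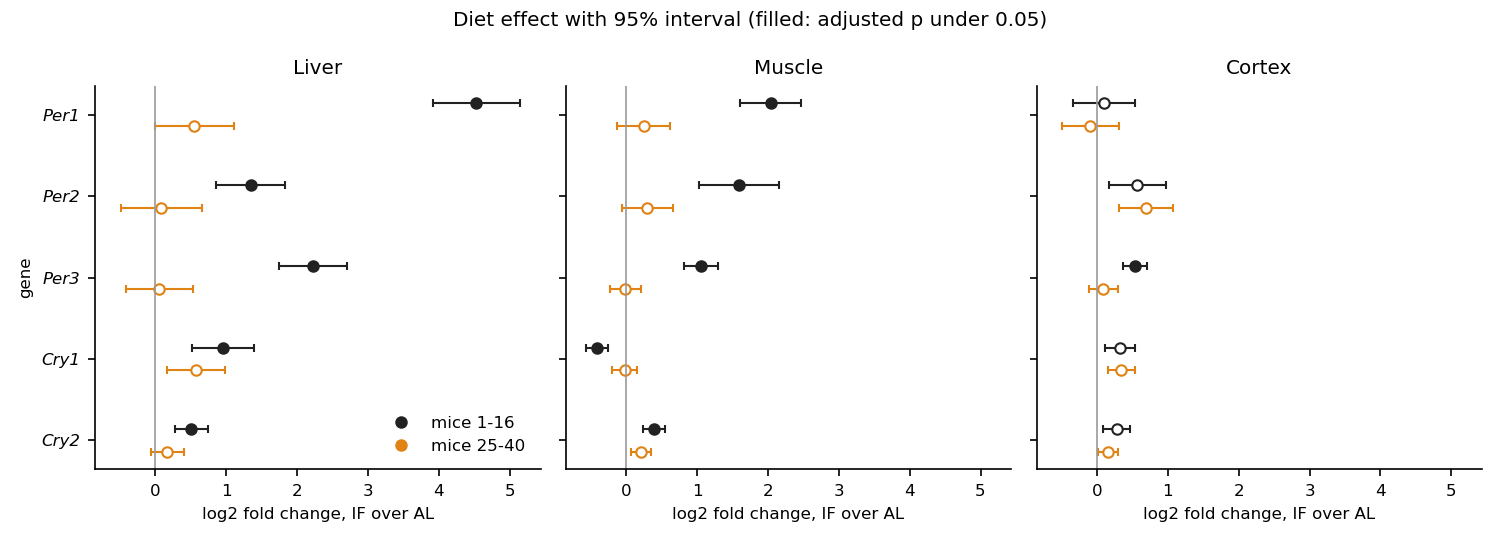
Log2 fold change of IF over AL with its 95% interval for each gene in liver, muscle and cortex, with mice 1-16 in black and mice 25-40 in orange. Filled points passed an adjusted p of 0.05, the highest being liver Per1 of mice 1-16 at 4.53, and no point of mice 25-40 is filled.

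Per1 had the largest log2 fold change of the 5 genes in liver and in muscle of mice 1-16. In liver of mice 1-16, it was 2.64 to 8.29 CPM (median 5.72) in AL and 46.9 to 203 CPM (median 136) in IF libraries. The groups did not overlap, and the lowest IF library, replicate 2, was still above every AL library. Per1 rose by 4.53 (standard error 0.293, adjusted p = 1.8e-09) on the log2 scale, in 8 of 8 IF mice. Liver of mice 25-40 began from a higher AL level, at 19.3 to 110.5 CPM (median 71.4), beside 75.3 to 152 CPM (median 92.8) in IF. AL replicate 4 was lowest there, the groups overlapped, and 2 IF libraries exceeded every AL library. The log2 fold change was 0.55 (standard error 0.267, adjusted p = 0.85) and did not pass, with a 95% interval of -0.012 to 1.10.

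Muscle of mice 1-16 held 8.43 to 22.7 CPM (median 15.4) of Per1 in AL and 35.2 to 82.6 CPM (median 67.7) in IF libraries. Again no AL library reached the IF range, and IF replicate 2 was the lowest of its group, as in liver. The rise was 2.04 (standard error 0.201, adjusted p = 4.86e-06). In muscle of mice 25-40 the levels were 41.6 to 97.0 CPM (median 57.8) in AL and 57.4 to 90.5 CPM (median 71.3) in IF, with every IF library inside the AL range. The fold change of 0.24 (standard error 0.176, adjusted p = 0.636) did not pass. Cortex Per1 was high under both diets, at 113 to 204 CPM (median 134) in AL and 111 to 262 CPM (median 149) in IF mice 1-16. Both groups spread widely, with 2 IF libraries above and 2 below all AL libraries. Its log2 fold change was 0.099 (adjusted p = 0.817), with a 95% interval of -0.33 to 0.53. Cortex of mice 25-40 had 91.0 to 221 CPM (median 201) in AL and 117 to 265 CPM (median 154) in IF, which overlapped, and a fold change of -0.093 (adjusted p = 0.872).

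Per2 differed in range between tissues. Its liver level in mice 1-16 was 15.4 to 40.03 CPM (median 26.3) in AL and 43.4 to 135 CPM (median 66.0) in IF libraries. The groups were apart by a small margin, since the lowest IF library lay just above the highest AL library, and IF replicates 1 and 5 were far above the others. Per2 rose by 1.34 (standard error 0.232, adjusted p = 1.19e-04) on the log2 scale, in 8 of 8 IF mice. In mice 25-40, AL livers were 32.4 to 146 CPM (median 80.4) and IF livers 44.7 to 143 CPM (median 73.9). The IF range lay inside the AL range, with AL replicate 7 the highest of all. The log2 fold change was 0.081 (standard error 0.271, adjusted p = 0.976), with a 95% interval of -0.49 to 0.65.

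Muscle Per2 was low, at 0.822 to 6.09 CPM (median 3.05) in AL and 7.82 to 13.98 CPM (median 10.4) in IF mice 1-16. Every IF library was above every AL library, and AL replicate 1 was lowest. The rise was 1.59 (standard error 0.264, adjusted p = 4.9e-04). Muscle of mice 25-40 had 6.15 to 15.7 CPM (median 8.46) in AL and 8.83 to 15.4 CPM (median 10.9) in IF. All 8 IF libraries were above the AL median but none above the highest AL library, and the fold change of 0.30 (standard error 0.173, adjusted p = 0.546) did not pass. In cortex of mice 1-16, Per2 was 18.3 to 45.7 CPM (median 26.1) in AL and 27.3 to 55.3 CPM (median 42.7) in IF. Here 4 of 8 IF libraries exceeded all AL libraries, and 8 of 8 exceeded the AL median. Its fold change of 0.57 (standard error 0.188, adjusted p = 0.075) did not pass, although it passed with DESeq2, at 0.57, and without AL replicate 7, at 0.72. Cortex of mice 25-40 gave 10.4 to 30.5 CPM (median 20.7) in AL and 22.4 to 45.6 CPM (median 34.996) in IF. That overlap was like the one in mice 1-16, with 4 of 8 IF libraries above all AL and 8 of 8 above the AL median. The fold change there was 0.69 (standard error 0.182, adjusted p = 0.261), which did not pass with edgeR and passed with DESeq2 at 0.68.

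Per3 was the member that passed in all 3 tissues of mice 1-16 in the same direction with groups that did not overlap. In liver it was 3.55 to 12.4 CPM (median 5.42) in AL and 25.4 to 46.9 CPM (median 29.96) in IF libraries. AL replicate 8 was the highest of its group and still lay below every IF library. Per3 rose by 2.22 (standard error 0.229, adjusted p = 1.4e-07), in 8 of 8 IF mice. The liver level of mice 25-40 was above both of these ranges, at 52.9 to 204 CPM (median 118) in AL and 84.2 to 198 CPM (median 107) in IF. These groups covered nearly the same range, with 2 of 8 IF libraries above the AL median. The log2 fold change was 0.050 (standard error 0.227, adjusted p = 0.983), with a 95% interval of -0.42 to 0.52.

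Muscle Per3 was 4.76 to 10.9 CPM (median 7.44) in AL and 14.8 to 19.2 CPM (median 17.8) in IF mice 1-16. The IF libraries were close together, with a coefficient of variation of 8.60% against 24.8% in AL, and all lay above the AL range. The rise was 1.05 (standard error 0.115, adjusted p = 1.29e-06). For mice 25-40 the muscle values were 18.9 to 35.2 CPM (median 28.9) in AL and 19.8 to 35.1 CPM (median 26.3) in IF, which overlapped almost fully. The fold change was -0.013 (standard error 0.104, adjusted p = 0.981), with a 95% interval of -0.23 to 0.20. In cortex of mice 1-16, Per3 was 25.3 to 35.5 CPM (median 27.3) in AL and 35.9 to 52.9 CPM (median 38.5) in IF libraries. The highest AL and the lowest IF library nearly met without overlapping. Per3 rose there by 0.54 (standard error 0.0835, adjusted p = 0.0019), and passed under every alternative run for that comparison. Cortex of mice 25-40 had 28.5 to 40.9 CPM (median 33.1) in AL and 22.6 to 43.6 CPM (median 35.3) in IF, with IF libraries both above and below the AL range. The fold change of 0.089 (adjusted p = 0.73) did not pass.

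Cry1 moved in opposite directions in liver and muscle of mice 1-16. In liver it was 2.83 to 13.2 CPM (median 7.88) in AL and 15.001 to 20.7 CPM (median 15.9) in IF libraries. The IF libraries were tightly grouped above a broad AL range and did not overlap it. Cry1 rose by 0.96 (standard error 0.209, adjusted p = 7.17e-04), in 8 of 8 IF mice. Liver of mice 25-40 had less Cry1 under both diets, at 2.004 to 5.69 CPM (median 3.96) in AL and 4.24 to 6.97 CPM (median 5.86) in IF. In that set 6 of 8 IF libraries were above all AL libraries. With a log2 fold change of 0.57 and an adjusted p of 0.785 it did not pass over all genes, and its unadjusted edgeR p was 0.00897.

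Muscle Cry1 was 12.6 to 17.03 CPM (median 13.7) in AL and 9.83 to 12.9 CPM (median 11.1) in IF mice 1-16. The IF group was lower, with 7 of 8 IF libraries below every AL library. The log2 fold change was -0.41 (standard error 0.0743, adjusted p = 3.91e-04), a fall in 8 of 8 IF mice against the AL median. In muscle of mice 25-40 it was 9.10 to 13.4 CPM (median 12.1) in AL and 9.46 to 14.04 CPM (median 11.2) in IF, groups that overlapped, with a fold change of -0.021 (adjusted p = 0.953). Cortex Cry1 was 17.1 to 25.9 CPM (median 19.9) in AL and 20.3 to 30.9 CPM (median 25.3) in IF mice 1-16. There, 4 of 8 IF libraries were above all AL libraries. The fold change of 0.33 (standard error 0.0994, adjusted p = 0.0502) missed the threshold narrowly. It passed with DESeq2 at 0.33, with the erythrocyte covariate at 0.31, with RLE size factors at 0.33, with no filter at 0.33, and without AL replicate 7 or without IF replicate 4, 6 or 7, at 0.36 to 0.39. Cortex of mice 25-40 had 11.6 to 15.8 CPM (median 12.7) in AL and 12.5 to 20.2 CPM (median 18.2) in IF. In 5 of 8 IF libraries Cry1 was above the AL range, and the fold change of 0.34 (standard error 0.0919, adjusted p = 0.258) did not pass.

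Cry2 varied little between mice of a group. Its liver level in mice 1-16 was 18.9 to 30.8 CPM (median 25.9) in AL and 29.8 to 46.0 CPM (median 37.6) in IF libraries. The groups touched, with 7 of 8 IF libraries above all AL libraries. Cry2 rose by 0.50 (standard error 0.114, adjusted p = 8.39e-04). In liver of mice 25-40 it was 32.5 to 55.6 CPM (median 47.4) in AL and 41.9 to 61.6 CPM (median 51.0) in IF, with broad overlap. The log2 fold change was 0.17 (standard error 0.111, adjusted p = 0.869), with a 95% interval of -0.063 to 0.40. Muscle of mice 1-16 had 26.4 to 40.5 CPM (median 31.9) in AL and 39.7 to 52.4 CPM (median 44.0) in IF. As in liver, 7 of 8 IF libraries were above all AL libraries, and the rise was 0.39 (standard error 0.0748, adjusted p = 7.87e-04).

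For mice 25-40, muscle Cry2 was 36.5 to 51.9 CPM (median 47.4) in AL and 47.1 to 57.9 CPM (median 49.7) in IF. The IF group sat in the upper part of the AL range and beyond it, with 7 of 8 libraries above the AL median. Its fold change of 0.21 (standard error 0.0706, adjusted p = 0.328) did not pass, at an unadjusted edgeR p of 0.00787. Cortex Cry2 was 112 to 183 CPM (median 138) in AL and 142 to 205 CPM (median 168) in IF mice 1-16. All 8 IF libraries were above the AL median, and 1 was above the AL range. The fold change was 0.28 (standard error 0.0919, adjusted p = 0.0689), which did not pass with edgeR and passed with DESeq2 at 0.28, and with edgeR without AL replicate 7 at 0.35 or without IF replicate 4 at 0.31. In cortex of mice 25-40 it was 126 to 164 CPM (median 138) in AL and 127 to 175 CPM (median 162) in IF, with 4 of 8 IF libraries above the AL range. That fold change, 0.16 (standard error 0.0676, adjusted p = 0.417), did not pass.

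Whether the diet effect itself differed between mice 25-40 and mice 1-16 was tested as an interaction, given as the effect in mice 25-40 minus that in mice 1-16. In liver 3 of 5 members passed, against 23.7% of 17658 genes. Per1 differed most, by -3.95 (standard error 0.407, adjusted p = 3.41e-08). The difference was -2.14 (adjusted p = 2.28e-05) for Per3 and -1.23 (adjusted p = 0.0175) for Per2. All 3 Period genes thus had a smaller liver diet effect in mice 25-40, while the cryptochromes were not called to differ, at -0.35 (adjusted p = 0.429) for Cry1 and -0.30 (adjusted p = 0.17) for Cry2.

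In muscle 4 of 5 members passed, against 14.2% of 16346 genes. The differences were -1.77 (adjusted p = 6.13e-05) for Per1, -1.27 (adjusted p = 0.00765) for Per2 and -1.05 (adjusted p = 3.95e-05) for Per3. Cry1, which fell in muscle of mice 1-16, had a difference of 0.41 (adjusted p = 0.01). For Cry2 it was -0.16 (adjusted p = 0.342) and did not pass. In cortex 0 of 5 passed with edgeR, against 2.03% of 19547 genes. At an unadjusted p under 0.05 edgeR gave 3007 genes there, of which 1 was a member, Per3, at -0.44 (standard error 0.133, adjusted p = 0.0715). DESeq2 was not run on the interactions. These interactions use the same libraries as the diet effects above.

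The AL levels of the 2 sets were also compared directly. Between AL livers, as mice 25-40 minus mice 1-16, 5 of 5 members passed, against 22.3% of 16090 genes. Per3 was higher in mice 25-40 by 4.03 (standard error 0.336, adjusted p = 1.42e-07) and Per1 by 3.52 (standard error 0.346, adjusted p = 1.36e-06), with no AL library of either set in the range of the other for both genes. Per2 was higher by 1.28 (adjusted p = 0.0025) and Cry2 by 0.73 (adjusted p = 1.11e-04). Cry1 went the other way, with a difference of -1.18 (standard error 0.256, adjusted p = 0.00182). AL muscle had the same order of signs, and 5 of 5 members passed, against 40.2% of 15079 genes. The muscle differences were 1.995 (adjusted p = 5.81e-06) for Per1, 1.42 (adjusted p = 0.00152) for Per2, 1.72 (adjusted p = 3.35e-08) for Per3, -0.36 (adjusted p = 0.00139) for Cry1 and 0.38 (adjusted p = 0.00141) for Cry2. In AL cortex 1 of 5 passed, against 11.3% of 18467 genes. It was Cry1, at -0.58 (standard error 0.0835, adjusted p = 3.88e-04), with Per3 next at 0.23 (adjusted p = 0.0534). Whether labelled sex, the hour at which each set was killed or another feature of the sets goes with these AL differences cannot be told apart.

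Scaling bears on these differences between sets of mice, since TMM factors and library totals place the middle of all genes apart. With library totals alone, the median over all genes moved from 0.016 to 0.19 for AL liver, from 0.031 to 0.16 for AL muscle, from -0.041 to -0.21 for the liver interaction and from -0.010 to -0.17 for the muscle interaction. The members kept their directions there. Muscle Cry1 then had a difference of 0.25 that did not pass, and Cry2 passed in liver at -0.47 and in muscle at -0.32.

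The diet effect was also compared between tissues of mice 1-16, with the mouse number as a block. This block, used in every comparison between tissues, takes the same number for the same mouse in each tissue, which the labels do not state. Muscle minus liver passed for 3 of 5 members, against 31% of 21608 genes. Per1 differed by -2.45 (standard error 0.328, adjusted p = 5.28e-07), Per3 by -1.16 (adjusted p = 7.12e-06) and Cry1 by -1.40 (adjusted p = 3.12e-06). Each of these effects was lower in muscle, and for Cry1 its sign changed. For Per2 the difference was 0.45 (adjusted p = 0.207) and for Cry2 -0.091 (adjusted p = 0.657), and neither passed. Cortex minus liver passed for 3 of 5, against 26.7%. Those were Per1 at -4.28 (standard error 0.343, adjusted p = 3.96e-11), Per3 at -1.67 (adjusted p = 2.25e-08) and Cry1 at -0.72 (adjusted p = 0.0109). Cortex minus muscle passed for 2 of 5, against 3.8%, with Per1 at -1.82 (standard error 0.330, adjusted p = 0.00103) and Per2 at -1.01 (adjusted p = 0.024). Per2 did not pass in the last of these without the block, at -1.02, or with no filter, at -1.02. Cry1 went the other way, at 0.68 (standard error 0.211, adjusted p = 0.0651), and did not pass there, although it did with RLE size factors, without the block and with Cortex AL replicate 1 kept, at 0.71, 0.73 and 0.76. These 3 comparisons share libraries.

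In mice 25-40, 0 of 5 members had a diet effect that differed between tissues, against 0.0047% of genes for muscle minus liver, 0% for cortex minus liver and 0.0047% for cortex minus muscle. These edgeR shares are 1, 0 and 1 of 21292 genes. At an unadjusted p under 0.05 edgeR gave 1648, 2037 and 1160 genes, among them Cry1 in the first of these and Per1 in the second. DESeq2 was not run on these comparisons. The member farthest from 0 was Per1 in cortex minus liver, at -0.72 (standard error 0.261, adjusted p = 0.384).

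Levels of a gene differed between tissues of AL mice for most members, as for most genes. In mice 1-16, 5 of 5 members passed in muscle minus liver (79.2% of genes), in cortex minus liver (83.4%) and in cortex minus muscle (80.2%). Cortex had more Per1 than liver by 3.88 (standard error 0.196, adjusted p = 4.17e-13) and than muscle by 2.21 (standard error 0.183, adjusted p = 1.22e-09). Per2 was lowest in muscle, with a muscle minus liver difference of -2.92 (standard error 0.203, adjusted p = 7.24e-11). Cry2 was highest in cortex, by 1.60 (standard error 0.0923, adjusted p = 3.59e-12) over liver. In mice 25-40 the shares were 4 of 5 for muscle minus liver (79.1% of genes), 5 of 5 for cortex minus liver (84%) and 4 of 5 for cortex minus muscle (80.5%). Per3 was then lower in cortex than in liver, by -2.36 (standard error 0.188, adjusted p = 4.43e-10), where in mice 1-16 it was higher, by 1.36 (standard error 0.164, adjusted p = 2.73e-07). That change of sign follows the high liver Per3 of mice 25-40.

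Between tissues the choice of scaling moved the AL medians most where cortex was compared. With library totals alone the median over all genes moved from 0.24 to 1.29 for cortex minus muscle and from 0.25 to 1.08 for cortex minus liver in mice 1-16, and from 0.033 to -0.13 for muscle minus liver. In mice 25-40 it moved from 0.23 to 1.10, from 0.28 to 0.91 and from 0.079 to -0.11. Cry1 was lower in cortex than in muscle with TMM, by -0.49 in mice 1-16 and -0.71 in mice 25-40, and the direction flipped with library totals, to 0.56 and 0.18. In mice 25-40 it flipped also for Per3 in cortex minus muscle, from -0.62 to 0.26, and for Cry2 in muscle minus liver, from 0.23 to -0.027. Of the flipped values only that of Cry1 in mice 1-16 passed with edgeR (adjusted p = 0.0144). Those of mice 25-40 did not pass, with edgeR adjusted p of 0.349 for Cry1, 0.194 for Per3 and 0.811 for Cry2. Per2 in cortex minus liver of mice 1-16 moved from -0.92 to -0.095 and then did not pass. Apart from scaling, Cry1 in cortex minus muscle of mice 1-16 did not pass with no filter, at -0.42. For cortex minus liver of the diet effect the shift was from -0.013 to -0.14, and no member changed direction.

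Spread among mice of the same group was set beside the diet effects as the coefficient of variation of CPM over each of the 12 groups. It ran from 17.6% to 51.8% for Per2, from 17.3% to 45.3% for Per1, and from 8.60% to 46.2% for Per3. In muscle and cortex the cryptochromes reached at most 17.6%. Cry1 ranged from 9.01% to 44.0%, with its highest value in AL liver of mice 1-16, and Cry2 from 6.97% to 16.5%.

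Relations between members over the mice of a group were computed for 10 pairs in 12 groups, and relations of a member between tissues for 60 more, 180 in all. Of these, 125 had a positive Pearson r, 89 of the 120 between members and 36 of the 60 between tissues. None passed after adjustment, whether by r or by rho, in two-sided exact permutation tests over all pairings, and 32 had an unadjusted p of r under 0.05. Per1 and Per2 had a positive r in 11 of 12 groups, with a median of 0.675. The smallest p was that of Per2 with Cry2 in IF cortex of mice 25-40, with r = 0.884 (exact permutation p = 5.21e-04, adjusted 0.0938) and rho = 0.905 (p = 0.00456, adjusted 0.198), n = 8. Without the 2 libraries farthest from the Per2 median, r was 0.844. The labels do not state that the same number marks the same mouse in each tissue, so the 60 relations between tissues rest on that reading.

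Genes whose pattern was most like each member's were sought among 12654 other genes that passed the count filter in all 6 fits. The measure was Pearson's r of log2 CPM over the 95 libraries after subtracting the mean of each tissue and set of mice, so shared diet effects count toward it. For Per1 the closest were Usp2 (0.867), Wee1 (0.854) and Ctsf (0.827). Within tissues, r of Per1 with Usp2 was 0.950 in liver and 0.911 in muscle of mice 1-16, and -0.0756 in their cortex. In mice 25-40 it was 0.690, 0.738 and -0.385 in the same order. For Ctsf, r with Per1 was 0.965 in liver and 0.667 in muscle of mice 1-16, and -0.00860 to 0.228 in the other groups. Per2 was closest to Snrk (0.756), Cys1 (0.711) and Per3 (0.706). Per3 had the highest single value, with Tef (0.901), followed by Nr1d2 (0.832) and Gpcpd1 (0.824). The closest to Cry1 were Ptpn11 (0.698), Mapre2 (0.697) and Fitm2 (0.687). In muscle of mice 1-16, r with Cry1 was -0.579 for Mapre2 and -0.371 for Fitm2. Fitm2 had -0.205 in muscle of mice 25-40, and all other within-tissue values of these genes were positive. The closest to Cry2 were Il6ra (0.727), Tcf25 (0.674) and Tef (0.672). Among members r was 0.814 for Per1 with Per3 and 0.689 for Per1 with Per2. Cry1 stood apart, with 0.229 to 0.408 to the other members. Over the mice of single groups, Per1 with Per3 had a median r of 0.0487 and a positive r in 7 of 12 groups.

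Other clock genes were counted from fixed lists, with the median log2 fold change of each list beside the all-gene medians of 0.060 in liver, 0.0059 in muscle and -0.0049 in cortex of mice 1-16. The share of genes that passed in either direction was 44.6% of all genes tested in liver, 23% in muscle and 7.21% in cortex. Of the 4 activators, which drive the Period and cryptochrome genes, 4 fell in liver (median -1.74), 3 fell in muscle (median -0.76) and 2 fell in cortex (median -0.16), and none rose. Arntl, which encodes BMAL1, was 12.99 to 26.5 CPM (median 20.5) in AL and 2.85 to 7.18 CPM (median 5.92) in IF liver. Every IF library lay below every AL library. Its log2 fold change was -1.91 (adjusted p = 1.55e-09) in liver, -1.003 (adjusted p = 2.99e-05) in muscle and -0.48 (adjusted p = 0.00357) in cortex. Clock had -0.43 (adjusted p = 0.00241), -0.51 (adjusted p = 1.52e-04) and -0.25 (adjusted p = 0.0343) in the same order. Npas2, whose product can stand in for CLOCK, was 1.94 to 14.8 CPM (median 7.54) in AL and 0 to 0.404 CPM (median 0) in IF liver. With so few counts in IF, its fitted value of -6.22 in liver depends on the prior count and gives the direction only. Npas2 fell also in muscle, at -2.38 (adjusted p = 5.69e-06), and did not pass in cortex, at -0.063 (adjusted p = 0.657). Arntl2, a paralogue of Arntl, fell in liver at -1.57 (adjusted p = 5.57e-04) and did not pass in muscle, at 0.21 (adjusted p = 0.384), or cortex, at 0.20 (adjusted p = 0.195).

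In mice 25-40 no activator passed with edgeR or with DESeq2, where edgeR passed 0% of all genes in liver, 0.00653% in muscle and 0.0109% in cortex. At an unadjusted edgeR p under 0.05 there were 1 of 3 tested in liver, Arntl2, 1 of 3 in muscle, Arntl, and 0 of 4 in cortex. Arntl was 0.654 to 1.95 CPM (median 1.05) in AL and 0.150 to 1.54 CPM (median 0.472) in IF liver, below the IF range of mice 1-16 in every library. Its log2 fold changes were -0.75 (adjusted p = 0.85) in liver, -0.56 (adjusted p = 0.438) in muscle and -0.12 (adjusted p = 0.511) in cortex. Clock had -0.17, -0.094 and -0.039, and Arntl2 -0.61, -0.017 and -0.062. Npas2 did not pass the count filter in liver or muscle and had 0.093 (adjusted p = 0.603) in cortex.

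Nr1d1, which encodes REV-ERB alpha, a repressor of Arntl, was 168 to 251 CPM (median 204) in AL and 26.99 to 54.3 CPM (median 39.04) in IF muscle of mice 1-16. These ranges were far apart, and the fall was -2.47 (standard error 0.121, adjusted p = 4.51e-10). In liver Nr1d1 was 45.2 to 132 CPM (median 72.2) in AL and 8.20 to 30.3 CPM (median 19.4) in IF, a fall of -1.96 (adjusted p = 7.44e-06). In cortex it was 66.7 to 114 CPM (median 103) and 67.3 to 146 CPM (median 88.2), and -0.032 (adjusted p = 0.934) did not pass. The PAR bZIP counts, also of mice 1-16, stand beside 44.6% of all genes tested in liver, 23% in muscle and 7.21% in cortex that passed. The PAR bZIP factors Dbp, Tef and Hlf, which activate D-box genes, and Nfil3, which represses them, had 3 higher of 4 in liver (median 0.92) and 2 higher of 4 in muscle (median 0.31). In cortex 2 were higher and 1 lower (median 0.39). Dbp rose in cortex, at 0.77 (adjusted p = 0.00192), and Nfil3 fell, at -0.67 (adjusted p = 0.0104).

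For the next 2 lists, the share that passed was again 44.6% of all genes tested in liver, 23% in muscle and 7.21% in cortex. Of the other repressors (Bhlhe40, Bhlhe41, Ciart and Timeless), 3 rose and 1 fell in liver (median 1.53), 3 fell in muscle (median -0.36) and 2 rose in cortex (median 0.38). Ciart, whose protein represses BMAL1 and CLOCK, was 0.0766 to 3.19 CPM (median 1.41) in AL and 12.4 to 42.7 CPM (median 22.7) in IF liver, with no overlap. It rose there by 3.92 (standard error 0.482, adjusted p = 8.33e-06) and in cortex by 0.95 (standard error 0.117, adjusted p = 3.26e-04). The kinases, ubiquitin ligases and the deubiquitinase Usp2, which act on PER or CRY proteins, had 3 higher and 4 lower of 9 in liver (median -0.085), 3 higher of 8 tested in muscle (median 0.17) and 1 higher of 9 in cortex (median -0.00027). Usp2 itself was 1.62 to 4.60 CPM (median 2.60) in AL and 69.2 to 110.1 CPM (median 85.6) in IF liver. The groups lay far apart, and the rise was 4.96 (standard error 0.184, adjusted p = 4.25e-15).

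Lists of genes that respond to signals known to act on Per1 and Per2 were counted in the same way, beside the 44.6% of all genes tested in liver, 23% in muscle and 7.21% in cortex that passed. Among glucocorticoid-induced genes, 4 rose of 7 tested in liver (median 0.52), 4 of 7 in muscle (median 0.63) and 4 of 8 in cortex (median 0.71), with none lower. Fkbp5 was 5.58 to 12.5 CPM (median 8.46) in AL and 14.9 to 81.0 CPM (median 55.4) in IF liver, apart from each other. It rose by 2.46 (adjusted p = 1.07e-05), and Zbtb16 by 1.79 (adjusted p = 5.95e-05). In muscle Ddit4 rose by 2.88 (adjusted p = 1.41e-05) and Tsc22d3 by 1.28 (adjusted p = 1.91e-06). Cortex had Sgk1 at 1.54 (adjusted p = 0.00172) and Tsc22d3 at 0.93 (adjusted p = 3.77e-05). CREB targets and immediate early genes had 2 higher of 8 in liver (median 0.23), 2 higher of 8 in muscle (median 0.011) and 1 lower of 8 in cortex (median -0.59). Nr4a1 rose in liver by 1.40 (adjusted p = 1.23e-04) and in muscle by 0.87 (adjusted p = 3.36e-08), and Sik1 by 1.27 (adjusted p = 1.5e-04) and 0.88 (adjusted p = 7.38e-06). The cortex gene that fell was Nr4a2, at -1.22 (adjusted p = 0.0155). In mice 25-40 edgeR passed 0% of all genes in liver, 0.00653% in muscle and 0.0109% in cortex. Liver Fkbp5 of those mice had a median of 50.7 CPM in AL and 63.5 CPM in IF. Their muscle Ddit4 had medians of 5.03 and 5.43 CPM, and their cortex Sgk1 47.6 and 51.9 CPM, in the same order.

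Heat shock and cold-inducible genes, which follow tissue temperature among other signals, had 2 higher of 8 in liver (median 0.45), against 44.6% of all genes passing. There were 3 lower of 8 in muscle (median -0.35), against 23%, and 2 higher and 5 lower of 8 in cortex (median -0.29), against 7.21%. The list pools heat shock genes with the cold-inducible genes Cirbp and Rbm3, so its counts and medians mix both kinds. Hspa1a rose in liver by 1.81 (adjusted p = 0.0343), at 0 to 0.663 CPM (median 0.150) in AL and 0.317 to 1.42 CPM (median 0.702) in IF, and Hsph1 by 1.01 (adjusted p = 1.62e-04). In muscle the log2 fold change was -0.92 (adjusted p = 0.0428) for Hspa1a and -0.46 (adjusted p = 0.0146) for Hspb1. Cortex had -0.81 (adjusted p = 0.0178) for Hspa1b and -0.61 (adjusted p = 0.031) for Hspb1. The part of these signals in the Period and cryptochrome levels was not tested.

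Markers of other cell types moved with diet in some of the same libraries, where 44.6% of all genes passed in liver, 23% in muscle and 7.21% in cortex of mice 1-16. Erythrocyte genes (Hba-a1, Hba-a2, Hbb-bs, Hbb-bt and Alas2) summed to 362 to 956 CPM (median 569) in AL and 667 to 6879 CPM (median 2070.4) in IF liver of mice 1-16, with 3 of 5 higher and Hba-a1 the most abundant. With the summed erythrocyte level in the model, 4190 genes passed in that liver against 7234 without it. All 5 members were among them, with log2 fold changes of 4.71 for Per1, 1.37 for Per2, 2.36 for Per3, 0.95 for Cry1 and 0.69 for Cry2. Adipocyte genes (Adipoq, Plin1, Cfd and Cidec) were 29.8 to 319 CPM (median 89.9) in AL and 112 to 1857 CPM (median 709.6) in IF muscle of mice 1-16, with 4 of 4 higher, a median log2 fold change of 2.39 and Cfd the most abundant. The same list was 16.96 to 40.8 CPM (median 27.97) in AL and 4.36 to 17.8 CPM (median 8.02) in IF liver, where 1 of 2 tested was lower. Endothelial genes (Pecam1, Cdh5, Kdr and Tie1) were 53.2 to 71.8 CPM (median 55.5) in AL and 71.2 to 134 CPM (median 84.9) in IF liver, with 1 of 4 higher and Kdr the most abundant in IF. Macrophage genes (Csf1r, Cd68, Adgre1 and C1qa) had 1 of 4 higher in liver, at 52.3 to 79.1 CPM (median 61.6) and 56.2 to 244 CPM (median 79.4), and 1 of 4 lower in muscle. In cortex of mice 1-16, the oligodendrocyte gene Mbp was 2597 to 4107 CPM (median 3269) in AL and 3719.8 to 6320.4 CPM (median 4927) in IF and rose by 0.59 (adjusted p = 0.0091). The astrocyte gene Aqp4 was 42.3 to 61.9 CPM (median 55.1) and 33.5 to 47.2 CPM (median 37.4) and fell, at -0.51 (adjusted p = 0.00258), while Gfap did not pass, at -0.11 (adjusted p = 0.674). Of the 5 neuron markers 0 passed with edgeR there, 0 had an unadjusted p under 0.05 and 0 passed with DESeq2, with sums of 7096 to 8227 CPM (median 7442) in AL and 7055 to 8352 CPM (median 7817) in IF. No gene of these lists was at 0 in all libraries of those groups. The summed erythrocyte level itself differed with diet in liver of mice 1-16, so the fit with it cannot separate erythrocyte content from diet. The part of the other cell types in the members' levels was not tested.

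Promoter sequences are shown because the members rose together in liver of mice 1-16, and the clock factors counted above act through short motifs. The RefSeq promoter table, built on GRCm38.p6, held 5 windows for 4 of the members, each from 250 bases before to 50 after a transcript start, with 2 for Per1. Per2 had no entry. Positions are from an exact match of each window to GRCm39. Both strands were searched for the E-box CACGTG, the E-prime box CACGTT, the cyclic AMP response element TGACGTCA, the D-boxes TTATGTAA and TTATGCAA, and the nuclear receptor motif AGGTCA. Of 32851 promoters of this length, 7.15% held CACGTG, 4.68% CACGTT, 1.79% TGACGTCA, 0.938% TTATGTAA, 0.743% TTATGCAA and 16.3% AGGTCA. Per1 promoter 1 (chr11:68989525-68989824, plus strand) held CACGTG 166 bases before the start, AGGTCA, read as TGACCT, at 137 bases and TTATGCAA at 24 bases. Per1 promoter 2 (chr11:68990728-68991027, plus strand) held none of these letters. The Per3 window (chr4:151129073-151129372, minus strand) held TTATGTAA at 205 and at 158 bases before the start. The Cry1 window (chr10:85020869-85021168, minus strand) held CACGTT, read as AACGTG, at 79 bases and CACGTG at 60 bases before the start, and the Cry2 window (chr2:92264365-92264664, minus strand) held AACGTG at 166 bases. TGACGTCA was in none of the 5 windows. In the GENCODE vM39 annotation, whose spans of Cry1, Per3 and Cry2 reach past the deposited ones given above, exons of the gene itself cover 300 of the 300 bases of Per1 promoter 1 and of the Cry1 window, 44 of Per1 promoter 2, 68 of the Per3 and 110 of the Cry2 window. Both Per1 windows lie downstream of the annotated start of the gene, so promoter is the table's name for them. A match describes the letters and does not show that a factor binds. The stretches below read 5′ to 3′ on the gene's strand, with motif matches in capitals. They lie at chr11:68989597-68989626, chr11:68989626-68989655 and chr11:68989740-68989769 for Per1, at chr4:151129141-151129372 for Per3, at chr10:85020970-85020999 for Cry1 and at chr2:92264475-92264664 for Cry2.
Per1 promoter 1, E-box: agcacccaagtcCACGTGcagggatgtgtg
Per1 promoter 1, AGGTCA: gtgacacagcccTGACCTcagtgggggcca
Per1 promoter 1, D-box: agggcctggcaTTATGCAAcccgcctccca
Per3: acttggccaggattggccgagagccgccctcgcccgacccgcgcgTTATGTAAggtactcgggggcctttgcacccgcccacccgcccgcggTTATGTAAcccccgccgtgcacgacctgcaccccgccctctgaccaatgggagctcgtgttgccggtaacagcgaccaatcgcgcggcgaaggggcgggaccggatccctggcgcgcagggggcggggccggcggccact
Cry1, E-prime box and E-box: gaAACGTGaggtgccggtggtCACGTGggg
Cry2: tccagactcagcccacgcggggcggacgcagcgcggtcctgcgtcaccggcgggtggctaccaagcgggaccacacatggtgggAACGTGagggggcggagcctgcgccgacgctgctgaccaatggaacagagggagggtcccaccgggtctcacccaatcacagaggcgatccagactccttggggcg

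**Figure D3:**
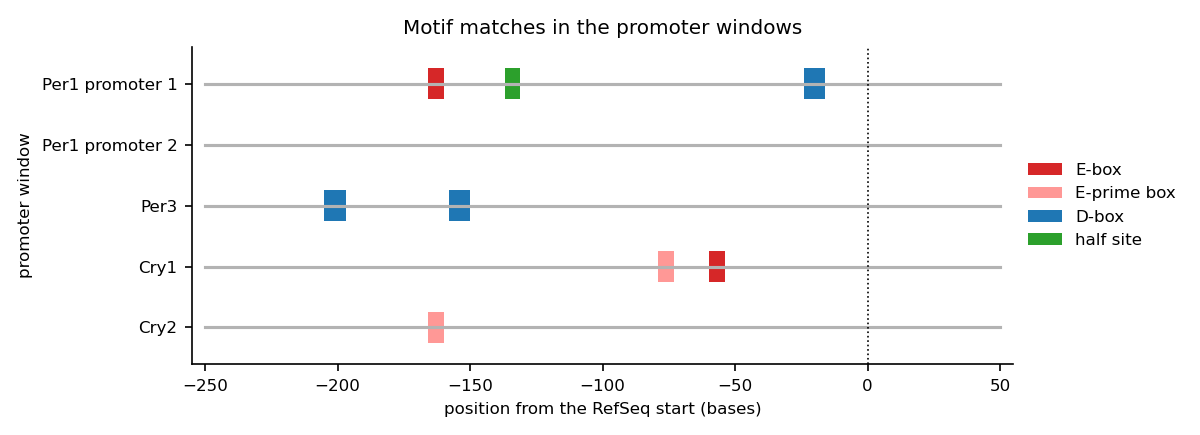
Motif matches in the 5 promoter windows, from 250 bases before to 50 bases after the start (axis in bases), coloured by motif. Per1 promoter 1 holds 3 matches, Per3 and Cry1 2 each, Cry2 1 and Per1 promoter 2 none.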

How the data were processed

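Raw counts were deposited, which the authors obtained by Hisat2 alignment to GRCm39 and featureCounts, without normalization and with no strand setting stated. The deposited table also gives each gene's length in bases, an other unit used here only for CPM per kb. Depth was 26097314 to 49838004 counts per library. CPM are raw counts over the library total times 1000000, and log2 CPM for relations and likeness used TMM factors and a prior count of 2. Libraries were grouped by the labels' tissue, diet and mouse number.

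Diet effects were tested in each tissue and set of mice with the quasi-likelihood test of edgeR 4.0.16 (R 4.3.3, TMM factors, robust dispersions, expression filter with a minimum count of 10 and a minimum total of 15, Benjamini-Hochberg over all genes, threshold 0.05). Differences between sets of mice were interaction contrasts in joint fits of both sets per tissue, and those between tissues in joint fits of the 3 tissues with the mouse number as a block. Standard errors are the log2 fold change over the root of F, with 95% intervals. The tests were tried on simulated data. Relations over mice used exact permutation of all pairings.

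Alternatives were an unadjusted p, RLE size factors, no filter beyond 1 count, DESeq2 1.42.0, the replicate number as a block, an erythrocyte covariate, 7 mice a group, Cortex AL replicate 1 kept, no mouse block, and each library left out in turn. The setting of 7 mice a group left out AL and IF replicate 2 of mice 1-16. Cortex AL of these mice, already without replicate 1, then had fewer than 7 libraries. Library totals alone were added after seeing the data. The members and the lists were chosen with earlier results of these data known. Named genes are the members, the activators, per tissue and set of mice the 3 clock-list genes with the largest absolute log2 fold change among those that passed, the 2 largest of each other list, and for each member the 3 genes most like it. Cortex AL replicate 1 was left out for its Xist level. Proteins were not analysed here. Python 3.11.15 with numpy 2.4.6, pandas 2.3.3 and matplotlib 3.10.9 served for levels, relations and plots.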

Additional observations from a re-analysis of the deposited data

Results flagged for a closer look

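A single library stood far from the others of its group. Per2 was 143 CPM in IF liver replicate 5 of mice 25-40, and the gap to the next library was larger than Dixon's critical value allows for 8 values. Of 60 groups of values tested, 1 was singled out in this way, and chance singles out about 1 in 20 groups.

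Diet effects that differed between groups were singled out where the test of the difference itself passed, which was so for 15 differences. Between mice 25-40 and mice 1-16 they were in liver -3.95 for Per1, -1.23 for Per2 and -2.14 for Per3, and in muscle -1.77 for Per1, -1.27 for Per2, -1.05 for Per3 and 0.41 for Cry1, each as the effect in mice 25-40 minus that in mice 1-16 on the log2 scale. Between tissues of mice 1-16 they were, for muscle minus liver, -2.45 for Per1, -1.16 for Per3 and -1.40 for Cry1. For cortex minus liver they were -4.28 for Per1, -1.67 for Per3 and -0.72 for Cry1. For cortex minus muscle they were -1.82 for Per1 and -1.01 for Per2. Of the 15, 2 did not pass under another setting. Muscle Cry1 was 0.25 with library totals alone, and Per2 in cortex minus muscle was -1.02 without the mouse block and -1.02 with no filter. Comparisons that share a tissue or a set of mice share libraries.

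The library left out of all comparisons, Cortex AL replicate 1 of mice 1-16, had 213 CPM of Xist, above the 0.612 CPM that is the highest of the libraries labelled male.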

How the results depend on the processing

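Of 844 results under another setting, leaving out libraries apart, 769 kept their direction and side of the threshold or stayed within 1.5 times their count. Others moved (40), gained a call (26), lost a call (5) or reversed (4). Every call of a diet effect on a member in mice 1-16 held under every setting run. Where no cause is given below, the cause was not tested.

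Without adjustment of p, which passes more genes by construction, counts were 919 in liver of mice 25-40 with 1 member, Cry1 at 0.57, and 1644 in their muscle with 1 member, Cry2 at 0.21. Their cortex had 2069 with 3 members, Per2 at 0.69, Cry1 at 0.34 and Cry2 at 0.16. Mice 1-16 had 5309 in muscle and 4400 in cortex with 4 members, Per2 at 0.57, Cry1 at 0.33 and Cry2 at 0.28 being gained. DESeq2 gave 6, 97 and 68 genes in liver, muscle and cortex of mice 25-40, with 1 member in cortex, Per2 at 0.68. In cortex of mice 1-16 it gave 2259 genes and 4 members, with Per2 at 0.57, Cry1 at 0.33 and Cry2 at 0.28 gained.

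RLE size factors gave 2 members in cortex of mice 1-16, with Cry1 at 0.33, 2 in the AL cortex of the sets, with Per3 at 0.23, Cry1 at 0.71 in cortex minus muscle of mice 1-16, and 2 genes in muscle minus liver of mice 25-40. With no filter, diet counts were 5 in muscle of mice 25-40, 220 for the cortex interaction, 534 for cortex minus muscle of mice 1-16 with 1 member, Per2 being lost at -1.02, and 0 for muscle minus liver and 0 for cortex minus muscle of mice 25-40. Cortex of mice 1-16 then had 2 members, with Cry1 at 0.33, and Cry1 was lost in AL cortex minus muscle at -0.42.

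Library totals alone, chosen after seeing the data, move every gene by the shift between scalings. Reversed were Cry1 in AL cortex minus muscle, at 0.56 in mice 1-16 and 0.18 in mice 25-40, Per3 there at 0.26 in mice 25-40, and Cry2 in AL muscle minus liver at -0.027 in mice 25-40. Of these only Cry1 of mice 1-16 passed in its new direction. Per2 was lost in AL cortex minus liver of mice 1-16 at -0.095 and gained in AL cortex minus muscle of mice 25-40 at 1.17. Of the differences between sets, muscle Cry1 was lost at 0.25, and Cry2 gained at -0.47 in liver and -0.32 in muscle. Counts were 0 in cortex of mice 25-40, and 4 for muscle minus liver and 0 for cortex minus muscle in those mice.

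The replicate number as a block gave 382 genes in cortex of mice 1-16 and 0 in that of mice 25-40. AL and IF libraries of the same number are different mice. The erythrocyte covariate gave 4190 genes in liver and 2 members in cortex of mice 1-16, with Cry1 at 0.31, and 0 genes in cortex of mice 25-40. With AL and IF replicate 2 left out together, cortex of mice 1-16 had 498 genes. Keeping Cortex AL replicate 1 gave 294 genes there, 81 for the cortex interaction and 682 between AL cortices, with Per2 at -0.71 in cortex minus liver and Cry1 at 0.76 in cortex minus muscle gained. Without the mouse block, cortex minus muscle of mice 1-16 lost Per2 at -1.02 and gained Cry1 at 0.73, and 13 and 12 genes passed in muscle and cortex minus liver of mice 25-40. Without TMM factors, 3 of the 180 relations over mice passed, in IF groups of 8: Per2 with Per3 in liver of mice 25-40 (r = 0.926), Per2 with Cry2 in cortex of mice 25-40 (r = 0.923) and Cry2 of liver with that of cortex in mice 1-16 (r = -0.979).

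With each library left out in turn, muscle of mice 25-40 had 1 to 3 genes, with 3 without AL replicate 3 and 2 without IF replicate 1. Cortex of mice 25-40 had 0 to 254, with 254 without AL replicate 2. Cortex of mice 1-16 had 638 to 2060, with 638 without AL replicate 2, 766 without AL 3, 771 without AL 5, 877 without IF 3, 2060 without IF 4, 866 without IF 5 and 823 without IF 6. Its members called were 1 to 4, with 4 without AL 7, 3 without IF 4 and 2 without IF 6 or IF 7. Per2 was 0.49 to 0.72, Cry1 0.27 to 0.39 and Cry2 0.23 to 0.35.

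Each mouse gives a single time of day, so a change of level and a shift of phase cannot be told apart. Sex and cohort cannot be told apart. Whole tissue was counted, and protein levels were not analysed here. Depth limits counting error only, while the 95% intervals come from the edgeR fits and include the spread between mice. The strand setting of the counting is not stated, and every member but Cry1 is overlapped by a noncoding gene on the other strand.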

Other observations

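The library left out, Cortex AL replicate 1 of mice 1-16, held 115 CPM of Per1, 28.5 CPM of Per2, 41.9 CPM of Per3, 16.5 CPM of Cry1 and 165 CPM of Cry2.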
